A study of Rattus norvegicus with 10 samples.

Results

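The complement genes described here are the 3 chains of C1q (C1qa, C1qb and C1qc), the components C3 and properdin (Cfp), the regulator Serping1 and the anaphylatoxin receptors C3ar1 and C5ar1. They were taken by gene name from the count table of 30560 genes, and 7 of the 8 names had a row, while C5ar1 was not analysed here. All 7 passed the filter on low counts, as did 15186 genes in all. The set was built around C1qa because C1qa had been higher in treated ganglia. Each member's difference between the groups is therefore a description, given with its spread and without a p-value.

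RNA was sequenced from L6 dorsal root ganglia, which hold the cell bodies of sensory neurons, of Sprague Dawley rats aged 7 to 8 weeks. One group of 5 samples came from rats given phosphate-buffered saline (PBS), and the other 5 from rats that received SCN9A_2544, a divalent siRNA (small interfering RNA), at 0.75 mg. It is directed against Scn9a, the gene of the sodium channel Nav1.7. Every rat had a lumbar intrathecal catheter, was dosed through it 5 days after surgery in 30 to 45 µL under isoflurane, and received meloxicam, an anti-inflammatory analgesic, at surgery and at dosing. All samples carry a timepoint of 14 days, with no day of origin named. No group given a siRNA of another sequence was analysed here, so the effects of this sequence and of dosing with any siRNA cannot be told apart. The series design names the specificity of the siRNA as the question.

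Complement is a cascade of plasma and tissue proteins that marks cells, debris and synapses for removal. C1q, built from 3 different chains, starts the classical pathway when it binds a surface, C3 is the central component on which the pathways converge, and properdin stabilises the alternative pathway's C3 convertase. Serping1 encodes the C1 inhibitor, and C3ar1 encodes the receptor for the fragment C3a. Most circulating complement is made in the liver, while C1q in tissues is known to come largely from macrophages and, in the central nervous system, from microglia.

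The libraries held between 11832376 and 15420006 estimated counts, and levels are given as CPM, read counts brought to the same depth in each library by TMM scaling. Scn9a lay between 132 and 257 CPM with PBS and between 44.6 and 103 CPM with SCN9A_2544, so the target followed the labels in all 10. All 16 sensory neuron markers were measured, with means of 7.83 to 9.28 log2 CPM. The oligodendrocyte genes Olig1 and Olig2 had at most 5 and 2 counts in any library. They were the lowest of the listed central glia genes. The highest count of the others ran from 14 for Aqp4 to 2200 for Gfap, and was 23.6 for the oligodendrocyte gene Mog. The neuron mean was lowest in SCN9A_2544 replicate 3 (7.83), PBS replicate 3 (8.06) and PBS replicate 5 (8.40), and results without these libraries are given where they change a call, a direction or a size by much.

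All 3 C1q chains stood about 2-fold higher in treated ganglia, and for each chain every treated library lay above every PBS library. C1qa (ENSRNOG00000012807), the A chain, was at 20.7, 35.9, 32.3, 26.8 and 28.5 CPM in PBS replicates 1 to 5, and at 47.3, 43.6, 67.4, 81.0 and 54.6 CPM in SCN9A_2544 replicates 1 to 5. The means were 28.9 ± 5.74 and 58.8 ± 15.4 CPM (SD, n = 5 each), and the log2 fold change was 1.03 (SE 0.20, 95% interval 0.59 to 1.46). The gap between the groups lay between PBS replicate 2 and SCN9A_2544 replicate 2, and the treated libraries were spread more widely, replicates 3 and 4 being the highest.

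C1qb (ENSRNOG00000012749), the B chain, was at 10.2, 14.2, 15.3, 13.9 and 14.7 CPM in PBS replicates 1 to 5, and at 18.5, 18.8, 34.1, 39.4 and 24.6 CPM in SCN9A_2544 replicates 1 to 5. Its means were 13.7 ± 1.99 and 27.1 ± 9.34 CPM (SD, n = 5 each), a log2 fold change of 0.99 (SE 0.23, 95% interval 0.49 to 1.48). As for the A chain, PBS replicate 1 was the lowest library and SCN9A_2544 replicate 4 the highest, without overlap between the groups.

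C1qc (ENSRNOG00000012804), the C chain, was at 15.5, 23.3, 23.6, 29.0 and 29.4 CPM in PBS replicates 1 to 5, and at 39.5, 33.6, 57.3, 63.9 and 41.1 CPM in SCN9A_2544 replicates 1 to 5. The means were 24.2 ± 5.67 and 47.1 ± 12.9 CPM (SD, n = 5 each), a log2 fold change of 0.96 (SE 0.22, 95% interval 0.48 to 1.44). The groups did not overlap, the closest pair being PBS replicate 5 and SCN9A_2544 replicate 2. In the whole table the groups did not overlap for 0.665% of tested genes, counted in both directions, and 0.454% lay higher in every treated library, against 3 of the 7 members. These shares are background only, since this contrast chose the set.

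**Figure D1:**
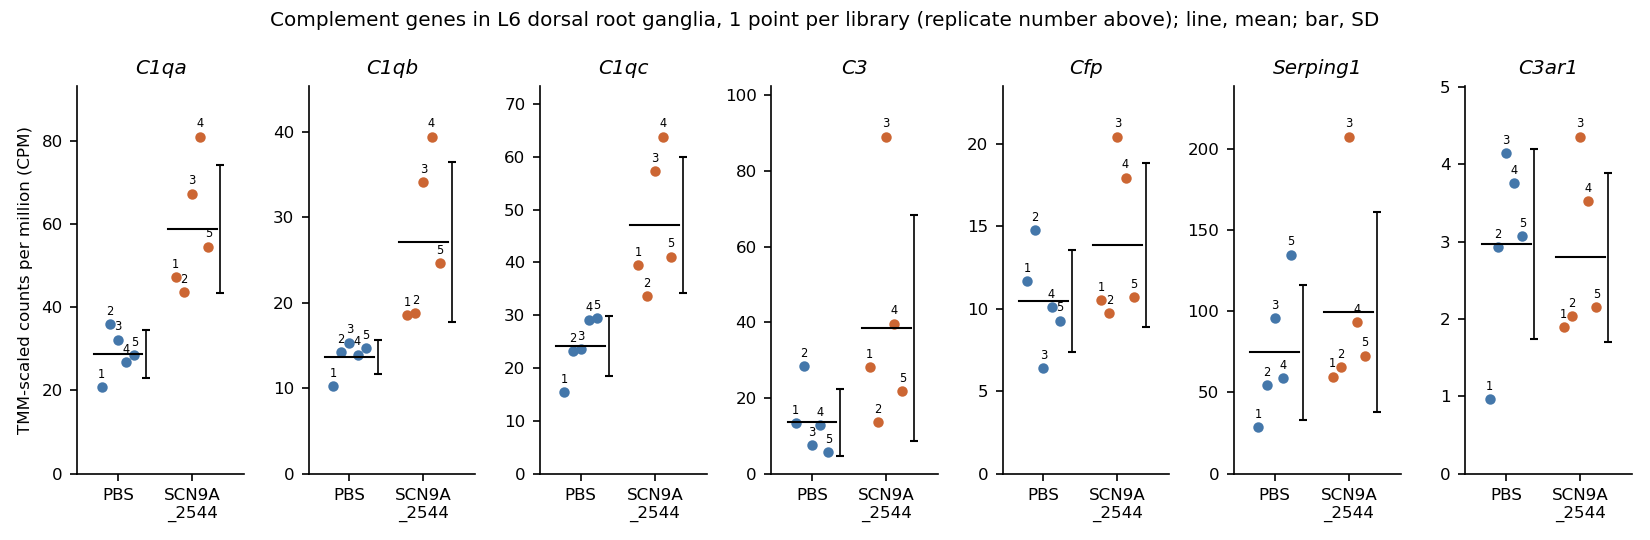
Level of each of the 7 measured complement genes in CPM (vertical axis, linear, starting at 0) in PBS and SCN9A_2544 libraries; each point is 1 library with its replicate number, the line is the group mean and the bar is the SD, n = 5 each. The C1q chains show no overlap between the groups, while C3, Cfp, Serping1 and C3ar1 overlap.

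The 3 chains kept a similar proportion to each other. The count of C1qb divided by that of C1qa was 0.479 ± 0.0507 in PBS and 0.453 ± 0.0452 in treated libraries (SD, n = 5 each). The ratio of C1qc to C1qa was 0.848 ± 0.196 in PBS, where it ran from 0.648 to 1.08, and 0.799 ± 0.0414 in treated libraries, where it ran from 0.753 to 0.850. Both ratios overlapped between the groups, and their differences of -0.0265 and -0.0491 were smaller than the SD within PBS. These ratios compare counts and take no account of transcript length, so they say nothing of the molar proportion of the chains.

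C1qb, C1qc and C1qa lie next to each other in this order on chromosome 5, with no other gene between them in RefSeq's rat annotation (GRCr8). Because these chains moved together, the 250 bases before the annotated start are shown for both chains that had an entry in the RefSeq promoter table. C3 is shown for comparison, and its covariation with the C1q chains was not tested. C1qa covers chr5:154419934-154420183 and C1qb chr5:154407828-154408077, and C3 covers chr9:2201340-2201589, all GRCr8 and minus strand, written 5′ to 3′ along the gene. In C1qa and C1qb capitals mark GGAAGT or its reverse complement, a core sequence of ETS family factors, to which the macrophage factor PU.1 belongs. In C3 capitals mark TTGCNNAA, a core of C/EBP sites.
C1qa: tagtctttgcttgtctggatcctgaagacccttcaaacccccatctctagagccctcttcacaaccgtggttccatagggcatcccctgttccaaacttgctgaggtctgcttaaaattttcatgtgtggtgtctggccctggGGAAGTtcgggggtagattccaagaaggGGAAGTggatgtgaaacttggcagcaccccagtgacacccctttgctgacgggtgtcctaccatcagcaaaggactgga
C1qb: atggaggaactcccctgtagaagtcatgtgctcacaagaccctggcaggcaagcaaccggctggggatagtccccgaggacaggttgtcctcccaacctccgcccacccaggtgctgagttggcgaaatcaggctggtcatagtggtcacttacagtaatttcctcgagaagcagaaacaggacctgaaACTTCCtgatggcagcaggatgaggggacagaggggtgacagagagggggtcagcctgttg
C3: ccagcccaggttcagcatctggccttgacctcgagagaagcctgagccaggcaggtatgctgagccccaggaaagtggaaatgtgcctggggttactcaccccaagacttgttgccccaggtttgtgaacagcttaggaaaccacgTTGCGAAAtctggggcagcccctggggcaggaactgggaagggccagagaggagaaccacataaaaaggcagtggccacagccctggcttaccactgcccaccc
C1qa held 2 matches of GGAAGT, at 107 to 102 and at 79 to 74 bases before the start, and C1qb held 1, on the opposite strand, at 61 to 56 bases before it. The C3 window held none of these and 1 match of TTGCNNAA, at 104 to 97 bases before the start, which neither C1q window held. TGCTGA, one side of the site bound by Maf factors, had 3 matches in C1qa, 1 in C1qb and 2 in C3. The windows of Cfp and C3ar1, not printed here, held 0 matches of GGAAGT, of TGCTGA and of TTGCNNAA. Both strands were searched and no match overlapped another. Of 33465 rat promoter windows of this length, 19.2% held GGAAGT, 15.1% TGCTGA and 9.22% TTGCNNAA. A match is a description of the letters and not a measured binding site.

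C3 (ENSRNOG00000046834) varied widely among libraries of the same group. It was at 13.5, 28.3, 7.52, 12.8 and 5.61 CPM in PBS replicates 1 to 5, and at 28.2, 13.5, 89.1, 39.7 and 21.8 CPM in SCN9A_2544 replicates 1 to 5. All 5 treated libraries lay above the PBS median, but only replicates 3 and 4 lay above the highest PBS library. The means were 13.6 ± 8.93 and 38.5 ± 29.9 CPM (SD, n = 5 each), and the log2 fold change was 1.50 (SE 0.53, 95% interval 0.35 to 2.66). Leaving out SCN9A_2544 replicate 3 gave 0.90 (SE 0.44), and leaving out the 3 libraries with the lowest neuron mean gave 0.47 (SE 0.37). The count of C3 divided by that of C1qa was 1.32 in SCN9A_2544 replicate 3 and between 0.311 and 0.596 in the other treated libraries.

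Cfp (ENSRNOG00000025811), encoding properdin, ranged from 6.39 to 14.8 CPM in PBS (median 10.1) and from 9.73 to 20.4 CPM with SCN9A_2544 (median 10.7). Its log2 fold change was 0.41 (SE 0.27, 95% interval -0.19 to 1.00), and the groups overlapped, with SCN9A_2544 replicates 3 and 4 alone above every PBS library. Leaving out SCN9A_2544 replicate 3 gave 0.19, and leaving out the 3 libraries with the lowest neuron mean gave -0.022.

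Serping1 (ENSRNOG00000007457), the C1 inhibitor gene, ranged from 28.8 to 135 CPM in PBS (median 59.0) and from 59.7 to 208 CPM in treated ganglia (median 72.7). Its log2 fold change was 0.42 (SE 0.43, 95% interval -0.52 to 1.36), a difference within the spread of the libraries. Without SCN9A_2544 replicate 3, the highest library, the value was -0.074 (SE 0.37). Without the 3 libraries with the lowest neuron mean, among them that replicate, it was 0.60 (SE 0.24). With the neuron mean as a covariate it was 0.48 (SE 0.20). It was 0.21 without PBS replicate 1 and 0.72 without PBS replicate 5.

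C3ar1 (ENSRNOG00000009211), the C3a receptor gene, was low, with 14 to 64 counts in a library. It ranged from 0.961 to 4.15 CPM in PBS and from 1.90 to 4.36 CPM in treated ganglia. The log2 fold change was -0.08 (SE 0.38, 95% interval -0.91 to 0.75). This interval overlaps those of C1qa, C1qb and C1qc, which begin at 0.59, 0.49 and 0.48. The difference of C3ar1 from the C1q chains was not tested. The sign of the C3ar1 value turned in 4 of 18 alternatives, each leaving out 1 library.

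Removing the group means left the variation between libraries of the same group, which did not enter the choice of the members. Over these centred values of the 10 libraries, 13 relations were computed, with p-values adjusted over them by the Benjamini-Hochberg method. C1qa followed C1qb (Pearson r = 0.918, permutation p = 0.00041, adjusted p = 0.0027; Spearman rho = 0.867, permutation p = 0.0022, adjusted p = 0.0096). C1qb followed C1qc (r = 0.877, permutation p = 0.0011, adjusted p = 0.0047; rho = 0.891, permutation p = 0.001, adjusted p = 0.0068). C1qa followed C1qc (r = 0.788, permutation p = 0.0082, adjusted p = 0.021; rho = 0.806, permutation p = 0.0076, adjusted p = 0.019). When the 2 libraries most distant from the first gene's median were left out of each pair, r was 0.858, 0.882 and 0.585 in that order. The relation of C1qa and C1qc did not pass without PBS replicate 1 (r = 0.690, permutation p = 0.077 adjusted) or without SCN9A_2544 replicate 2 (r = 0.731, permutation p = 0.051 adjusted).

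The mean of the 3 C1q chains also followed the mean of 21 macrophage markers that hold no complement gene. Here r was 0.938 (permutation p = 9e-05, adjusted p = 0.0012) and rho was 0.952 (permutation p = 0.00015, adjusted p = 0.0019), and r was 0.893 without SCN9A_2544 replicate 4 and PBS replicate 1, the farthest libraries. Permuting within groups only gave a permutation p = 0.003 (adjusted p = 0.013). The relation passed in all 15 alternatives, with r from 0.910 to 0.989. These points share their library, depth and scaling. C3ar1 followed the macrophage mean as well (r = 0.782, permutation p = 0.0056, adjusted p = 0.018; rho = 0.770, permutation p = 0.013, adjusted p = 0.019; r = 0.785 without those 2 libraries), though not without SCN9A_2544 replicate 3 (r = 0.732, permutation p = 0.052 adjusted).

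C3, Cfp and Serping1 had r of 0.640, 0.655 and 0.633 with the macrophage mean, each with an adjusted permutation p = 0.06. Their unadjusted permutation p-values were 0.047, 0.045 and 0.051. Their rho was 0.527 (permutation p = 0.12, adjusted p = 0.15), 0.503 (permutation p = 0.14, adjusted p = 0.15) and 0.782 (permutation p = 0.011, adjusted p = 0.019). Without the 2 farthest libraries r was 0.813, 0.800 and 0.629. Within the treated group alone the 3 values of r were 0.854, 0.978 and 0.766, and within PBS they were 0.277, 0.112 and 0.521, each over 5 libraries and given without a test. Each of these 3 relations passed by r in 4 of the 15 alternatives. Without the 3 libraries of lowest neuron mean r was 0.821, 0.848 and 0.807, each with an adjusted permutation p = 0.041. Leaving out PBS replicate 1 brought C3 to 0.778 (permutation p = 0.036 adjusted) and Cfp to 0.854 (permutation p = 0.017 adjusted).

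Serping1, a gene also known from fibroblasts, followed the mean of 8 fibroblast markers (r = 0.737, permutation p = 0.014, adjusted p = 0.028; rho = 0.770, permutation p = 0.013, adjusted p = 0.019). This rested on PBS replicates 1 and 5, without which r was 0.381, and the call was also lost without SCN9A_2544 replicate 1 (r = 0.721, permutation p = 0.054 adjusted). C3 did not follow these markers (r = -0.123, permutation p = 0.74, adjusted p = 0.74; rho = -0.091, permutation p = 0.81, adjusted p = 0.81; r = 0.224 without PBS replicates 1 and 5). Its r was 0.137 without PBS replicate 5 and 0.650 without the 3 libraries of lowest neuron mean.

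The C1q mean also followed the fibroblast mean over the centred libraries (r = 0.727, permutation p = 0.015, adjusted p = 0.028; rho = 0.806, permutation p = 0.0074, adjusted p = 0.019; r = 0.679 without PBS replicates 1 and 5). This relation lost its call without PBS replicate 1 (r = 0.572, permutation p = 0.17 adjusted), SCN9A_2544 replicate 1 (r = 0.711) or SCN9A_2544 replicate 4 (r = 0.685). With the Schwann cell mean r was 0.665 (permutation p = 0.037, adjusted p = 0.06) and rho 0.782 (permutation p = 0.01, adjusted p = 0.019), with r = 0.454 without SCN9A_2544 replicate 3 and PBS replicate 1. With the neuron mean r was -0.617 (permutation p = 0.059, adjusted p = 0.063) and rho -0.745 (permutation p = 0.018, adjusted p = 0.023), with r = -0.643 without replicate 3 of each group. C1q thus stood lower, by rank, in libraries with more neuronal RNA. The neuron relation passed the threshold by r in 3 of the 15 alternatives, among them without the 3 libraries of lowest neuron mean (r = -0.782, permutation p = 0.041 adjusted), and the Schwann cell relation in 4.

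**Figure D2:**
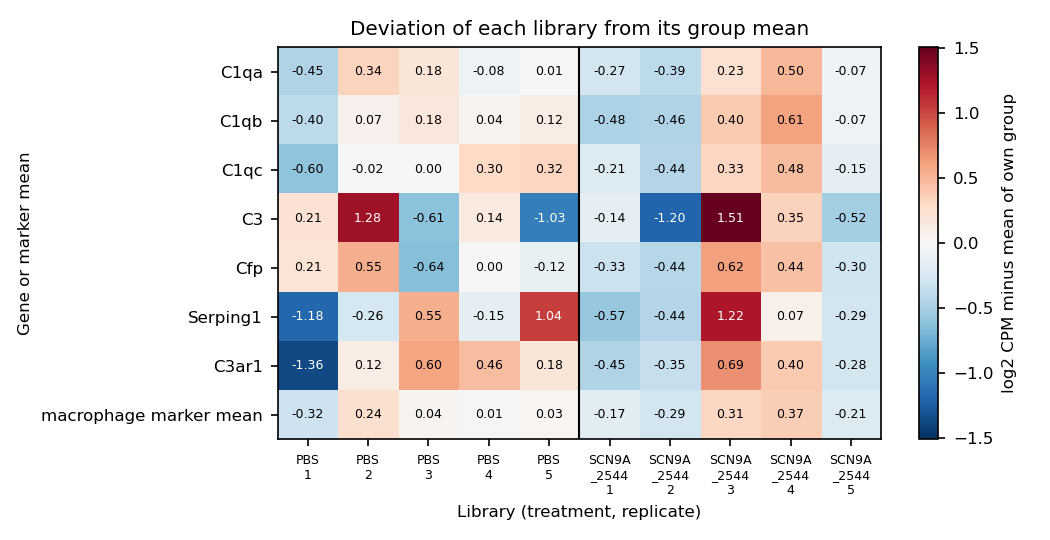
Deviation of each library (columns, 5 PBS and 5 SCN9A_2544) from the mean of its own group, in log2 CPM, for the 7 complement genes and the macrophage marker mean (rows); red is above and blue below the group mean. The C1q rows share PBS replicate 1 and SCN9A_2544 replicates 1 and 2 below and SCN9A_2544 replicates 3 and 4 above, while C3 is highest in PBS replicate 2 (1.28) and SCN9A_2544 replicate 3 (1.51).

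The level of macrophage markers was set beside that of C1q in each library. The C1q mean averaged 4.39 ± 0.27 log2 CPM with PBS and 5.35 ± 0.41 with SCN9A_2544 (SD, n = 5 each), a difference of 0.96, and it stayed between 0.83 and 1.07 with 1 library left out. The macrophage mean was 3.64 ± 0.20 and 3.92 ± 0.31 log2 CPM, a difference of 0.28 with overlapping groups. The set was chosen on the C1q difference, so the sizes of these 2 differences are a description. The summed level of the 22 listed markers ran from 509 to 766 CPM in PBS and from 524 to 986 CPM in treated libraries, and none was at 0 in all libraries. The C1q mean less the macrophage mean lay between 0.58 and 0.88 on the log2 scale in PBS and between 1.29 and 1.60 in treated libraries. These ranges were apart, but they draw on the C1q difference that chose the set and are a description as well. In a bulk ganglion, more cells of a type and more RNA per cell cannot be told apart.

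With the macrophage mean as a covariate of the fit, the log2 fold changes were 0.68 (SE 0.13) for C1qa, 0.57 (SE 0.16) for C1qb and 0.60 (SE 0.17) for C1qc. They were 0.64 for C3, 0.02 for Cfp, -0.23 for Serping1 and -0.65 for C3ar1. With the neuron mean as a covariate the C1q chains were at 1.05, 1.01 and 0.98.

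Of the 21 macrophage markers tested 17 lay above 0, against 53.4% of all genes tested. Their median log2 fold change was 0.31, against 0.02 over all genes tested. By edgeR 0 passed an adjusted p of 0.05, and at an unadjusted p under 0.05 there were 7 higher and 2 lower, against 2.5% of all tested genes higher and 1.73% lower. Ctss, the lysosomal protease cathepsin S, Trem2, a lipid-sensing receptor, and Cd14, a co-receptor for endotoxin, had log2 fold changes of 0.89, 0.74 and 0.71. In each of them every treated library lay above every PBS library, as for 0.454% of all tested genes. In either direction the groups did not overlap for 0.665% of all tested genes. Cx3cr1, the fractalkine receptor, was at 0.91. Lyve1, a hyaluronan receptor of some resident macrophages, had a log2 fold change of -0.78 without overlap, and F13a1, a coagulation factor subunit, -0.93. The markers thus did not all share the direction of C1q.

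Of the other cell types, the mean of 7 satellite glia markers ran from 5.02 to 5.49 log2 CPM with PBS and from 5.69 to 5.87 with SCN9A_2544, with summed levels of 473 to 547 and 549 to 661 CPM. The groups did not overlap in this mean. By edgeR 6 of the 7 lay above 0 (53.4% of all genes tested), 3 were higher with an unadjusted p under 0.05 (2.5% of all genes) and 0 passed adjusted. Means of neutrophil, lymphocyte, endothelial, fibroblast and blood markers differed by between -0.07 and 0.11 log2 CPM, with overlapping groups, although the median log2 fold changes of their tested genes were lower for neutrophil (-0.40, 0 of 7 above 0), fibroblast (-0.41, 2 of 8) and blood markers (-0.36, 0 of 2). The Schwann cell mean differed by -0.24 with overlapping groups, and 3 of its 14 markers lay above 0. The mean of the 4 central glia markers with enough counts, of 8 listed, was 2.07 ± 0.54 log2 CPM with PBS and 2.50 ± 0.36 with SCN9A_2544, a difference of 0.43 with overlapping groups. All 4 lay above 0, 1 with an unadjusted p under 0.05. Among them Tmem119, a gene of central microglia, had 2.06 ± 0.17 CPM with PBS and 3.46 ± 0.94 with SCN9A_2544, and P2ry12 4.64 ± 2.61 and 4.89 ± 1.46 (SD, n = 5 each). The part of macrophage, satellite glia and central glia markers in the C1q difference was not tested beyond these values.

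**Figure D3:**
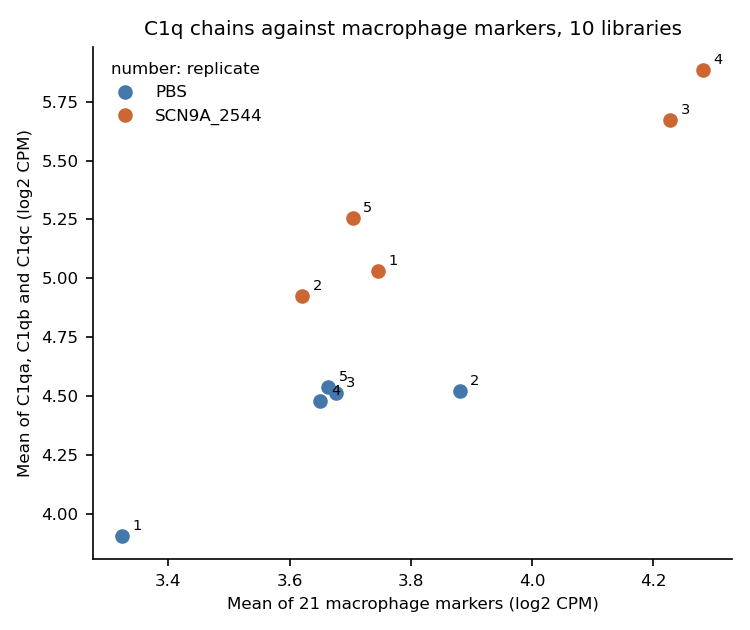
Mean log2 CPM of C1qa, C1qb and C1qc (vertical axis) against the mean log2 CPM of 21 macrophage markers (horizontal axis), 1 point per library with its replicate number. All 5 treated libraries lie above all PBS libraries on the vertical axis, while on the horizontal axis SCN9A_2544 replicate 2 (3.62) lies below 4 PBS libraries.

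The remaining complement genes showed no call. Of 54 listed genes other than the members, 46 had a row and 35 had enough counts to be tested. By edgeR 0 were higher and 0 lower at an adjusted p of 0.05, the same as the 0% of all tested genes, and DESeq2 also called 0. Values above 0 were found for 26 of the 35 (74.3%), against 53.4% of all genes, and the median was 0.12 against 0.02. At an unadjusted p under 0.05 there were 3 higher and 0 lower, against 4.23% of all tested genes in both directions. With 1 library left out this count of higher genes ran from 0 to 4, being 0 without PBS replicate 3 or SCN9A_2544 replicate 4 and 1 without SCN9A_2544 replicate 3.

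Those 3 were Cfb, C4a and C5ar2, each with overlapping groups and an adjusted p of 0.963 by edgeR. Cfb, the protease of the alternative C3 convertase, averaged 22.4 ± 8.58 CPM with PBS and 34.9 ± 6.05 CPM with SCN9A_2544 (log2 fold change 0.64, SE 0.28). PBS replicate 1, at 8.72 CPM, was its lowest library. C4a, which follows C1 in the classical pathway, stood at 62.3 ± 34.9 and 126 ± 78.0 CPM (1.01, SE 0.46), with 263 CPM in SCN9A_2544 replicate 3 and at most 115 CPM in every other library. C4a and C4b (0.81, SE 0.54) are near-identical copies, so the division of reads between them is uncertain. C5ar2, the second receptor for C5a, stood at 7.43 ± 1.92 and 10.4 ± 1.27 CPM (0.49, SE 0.20; SD, n = 5 each throughout).

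C1r and C1s encode the proteases that join C1q in the C1 complex. The log2 fold change of C1r was -0.11 (SE 0.39) and that of C1s 0.12 (SE 0.40), with 95% intervals of -0.96 to 0.74 and -0.75 to 0.99. The interval of C1s reaches the values of C1qb and C1qc, and the difference of these genes from C1q was not tested. The lectin pathway gene Colec11 was at -0.24 (SE 0.14). In the classical and lectin group 6 of 9 tested genes lay above 0, against 53.4% of all genes tested. Cfd, the serine protease that activates factor B, was at 0.40 (SE 0.24). Of the terminal components that build the membrane attack complex, C8g and C6 were tested, with log2 fold changes of 0.06 and -0.21. C5, C8a, C8b and C9 had at most 7 counts in any library.

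Among regulators 11 of 14 tested genes lay above 0, against 53.4% of all genes tested, with a median of 0.19. The 3 with the most counts were the chaperone clusterin (Clu, 0.21, SE 0.29), Cd59, which blocks the membrane attack complex (0.00, SE 0.19), and Cd55, which speeds the decay of convertases (-0.17, SE 0.26). Of 8 receptors and C1q-binding proteins 6 lay above 0, and Calr, Lrp1 and C1qbp had values of 0.02, 0.10 and -0.12. Itgam, Itgax and Itgb2, subunits of the complement receptors CR3 and CR4, had log2 fold changes of 0.31 (SE 0.43), 0.42 (SE 0.35) and 0.32 (SE 0.42), with 95% intervals that include 0.

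**Figure D4:**
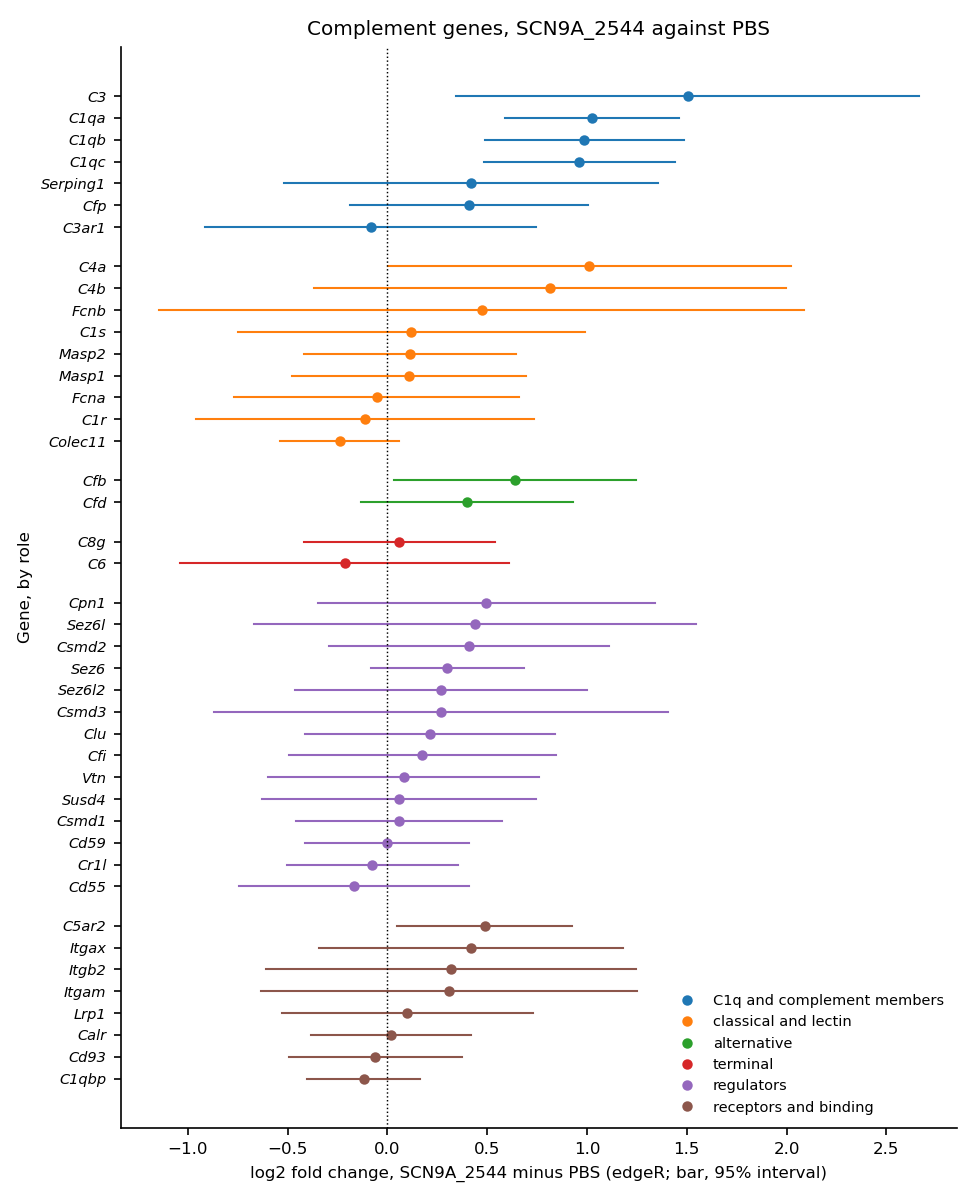
Log2 fold change (SCN9A_2544 minus PBS, horizontal axis) with its 95% interval for the 7 members and the 35 other complement genes tested (vertical axis, grouped and coloured by role). The intervals of C3 and the 3 C1q chains lie above 0, and those of most other genes include 0. The set was built around C1qa being higher in this contrast, so the members' intervals are a description and not a test.

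Genes that varied most like C1q were ranked by Pearson r of their centred log2 CPM with the centred C1q mean, over the 10 libraries and 15183 genes. The 10 closest were Cyth4, Parp14, Ccrl2, Prep, Tgfbi, Csf1r, Btbd11, Pld4, Calhm2 and Ifi30, with r from 0.942 to 0.903. These are the extremes of a ranking of 15183 genes over 10 libraries, where high r can arise by chance. The ranks were not tested. Their log2 fold changes between the groups ran from -0.01 for Tgfbi, a matrix protein, to 0.41 for Ifi30, a lysosomal thiol reductase. Csf1r, the receptor for colony-stimulating factor 1, stood at r = 0.924, and its log2 fold change was 0.40 (SE 0.24). Of the other members, C3ar1 was ranked 32 (r = 0.847), Serping1 379 (r = 0.715), Cfp 2935 (r = 0.481) and C3 3640 (r = 0.422).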

How the data were processed

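Gene expression was measured by poly(A) RNA sequencing in 10 ganglion samples. The authors deposited 1 table of estimated counts per gene and library, not normalized. Per the submitters' processing notes, STAR 2.7.10a, DESeq2 1.44.0 and the build mRatBN7.2 were used, with no role given. For the counting program, annotation and strand setting, the sources used here name nothing. Between 11.6% and 12.4% of values per library were not whole, and counts were rounded before testing.

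The members, gene lists, motifs and tests were chosen with earlier results of these data known. Genes were kept by filterByExpr (minimum count 10, minimum total 15), libraries were scaled by TMM, and edgeR 4.0.16 (R 4.3.3) gave the quasi-likelihood test over all genes with Benjamini-Hochberg adjustment and a threshold of 0.05. The SE of a log2 fold change is its size divided by the root of F. Log2 CPM used a prior count of 2, and marker means took 1 row per gene name. Correlations used log2 CPM less the group mean and 100000 two-sided permutations. Values were shuffled over all 10 libraries without regard to group, which makes no allowance for the group means removed. Promoter sequences are RefSeq's (GRCr8), with entries for 5 of 7 members, C1qc and Serping1 being the others. In data simulated for this comparison over 15047 genes, edgeR recovered 40% of 50 genes changed 2-fold and 2% of 50 changed 1.5-fold, with 4 false calls.

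Besides the complement genes counted in the report, 1 more that had been listed was left out and is not reported here. The named genes are the members, complement genes with an unadjusted p under 0.05 or among the 3 highest of their role, and the 10 closest to C1q; C1s, C4b, C5, C8a, C8b, C9, Itgam, Itgax, Itgb2 and the named markers were added after their values were seen. The labels name separate samples but not animals, and no batch, so a p-value reflects only how these samples spread, which may be partly technical. No pair of libraries agreed within sampling noise (chi-square per gene 7.70 to 218 over 45 pairs). Alternatives were DESeq2 1.42.0, RLE and upper-quartile scaling, no filter, prior count 0.5, neuron or macrophage mean as covariate, the replicate number as a block, and each library left out. Leaving out the 3 libraries of lowest neuron mean and permuting within groups were added after seeing the data.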

Additional observations from a re-analysis of the deposited data

Results flagged for a closer look

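In 78 groups of 5 libraries, 12 had 1 library far from the other 4 by the 95% critical value of Dixon's ratio, where chance flags about 1 in 20 groups. That rate holds for independent groups of normally distributed values. These groups reuse the same 10 libraries and in part the same genes, so the count of 12 is not a test against it. PBS replicate 1 was low for C1qb (10.2 CPM, the others 13.9 to 15.3) and for the C1q mean (3.91 log2 CPM, the others 4.48 to 4.54), and high for Cd55 (350 CPM, the others 172 to 185). SCN9A_2544 replicate 3 was high for Serping1 (208 CPM, the others 59.7 to 93.4), C4a (263 CPM, the others 75.8 to 115), Lrp1 (518 CPM, the others 291 to 316), the ratio of C3 to C1qa counts (1.32, the others 0.311 to 0.596) and the endothelial marker mean (4.30 log2 CPM, the others 3.96 to 4.05), and low for the hepatocyte marker mean, which rests on 1 gene (2.01 log2 CPM, the others 3.12 to 3.41). SCN9A_2544 replicate 1 was high for the satellite glia mean (5.87 log2 CPM, the others 5.69 to 5.73). PBS replicate 3 was high for Calr (788 CPM, the others 458 to 538) and PBS replicate 4 for C6 (4.02 CPM, the others 1.14 to 1.80).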

How the results depend on the processing

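Over 18 alternatives the C1q chains stayed above 0, with log2 fold changes of 0.68, 0.57 and 0.60 at the lowest and 1.12, 1.10 and 1.06 at the highest for C1qa, C1qb and C1qc, the lowest each with the macrophage mean as a covariate. The difference of the C1q mean ran from 0.83 to 1.07 over its own 14 alternatives. These held neither covariate, nor DESeq2, upper-quartile scaling or the fit without a filter. The count of genes called over the whole table, 0 by edgeR with 642 at an unadjusted p under 0.05, was 17 by DESeq2, 1 with the neuron mean as a covariate, 1 without the 3 libraries of lowest neuron mean, and between 0 and 1 with each library left out. The 1 arose on leaving out SCN9A_2544 replicate 2 or replicate 3. Leaving out PBS replicate 4 or 5 turned the 642 into 1642 or 385, leaving out replicate 1 or 3 of SCN9A_2544 into 406 or 991, and the neuron covariate into 1470. Complement genes other than the members had 0 calls in every alternative. With each library left out, C3ar1 ran from -0.33 to 0.067, positive without PBS replicate 3 or 4 or SCN9A_2544 replicate 1 or 2, Serping1 from -0.074 to 0.72, negative without SCN9A_2544 replicate 3, and r of C3 with the fibroblast mean from -0.271 to 0.137, positive without PBS replicate 5. Signs also turned for Cfp (-0.022) and that r (0.650) without the 3 libraries of lowest neuron mean, and for Serping1 with the macrophage mean as a covariate (-0.23). The cause was not tested.

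Samples with the same replicate number correlated between -0.00625 and 0.567 in their deviations, and 2 of 5 correlated best with their own number, so the number is not taken to pair them. With the replicate number as a block, edgeR called 0 genes, 753 had an unadjusted p under 0.05, C1qa was at 1.01, the C1q mean difference at 0.96 and r of C1q with macrophage markers at 0.989. With this block the adjusted permutation p was 0.056 for C1qc with C1qa (r = 0.675) and with C1qb (r = 0.658), 0.083 for C3ar1 with the macrophage mean (r = 0.584), and 0.056 and 0.055 for Serping1 (r = 0.654) and C1q (r = 0.692) with the fibroblast mean, so that these calls were lost. It was 0.037 for Cfp (r = 0.753) and 0.038 for C3 (r = 0.724) with the macrophage mean, and 0.017 and 0.01 for C1q with the neuron and Schwann cell means. Permuting within groups gave an adjusted p of 0.013 for C1q with macrophage markers and brought the Schwann cell relation to 0.049. C3ar1 had 14 to 64 counts a library, and its 95% interval of -0.91 to 0.75 holds differences in both directions.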
